A study of Homo sapiens with 12 samples.

Results

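The combined response compared here is that of HT1080 cells carrying the m6A-Tracer fused to VP16, with the tracer expressed and Dam-LaminB1 stabilised, against the same cells uninduced. It rests on 4 of the 12 libraries of the series: the 2 labelled VP16 positive and Dam-LaminB1 positive (VP16_tracer_Dam) and the 2 labelled negative for both (VP16_uninduced), chosen by their sample numbers and paired within the 2 sets of libraries that reuse the same index sequences (index sets 1 and 2). HT1080 is a human fibrosarcoma cell line, and all the VP16 libraries come from 1 clone, m6A-Tracer-VP16, grown in DMEM with fetal bovine serum. VP16_uninduced cells were kept in 50 ng/ml doxycycline for 4 days. VP16_tracer_Dam cells had doxycycline for 3 days and were then without it for 24 h, with 500 nM Shield1 in that period. The 2 VP16_tracer libraries had the same withdrawal without Shield1 and serve here to show where the change was made in steps. A second clone, m6A-Tracer-GFP, had the same 3 treatments and is used for comparison only. No library had Shield1 with doxycycline, or withdrawal without the tracer, so the effects of doxycycline withdrawal, tracer expression, Shield1 and Dam-LaminB1 cannot be told apart in the combined comparison. Within the steps, withdrawal cannot be told apart from tracer expression, or Shield1 from Dam-LaminB1. The series describes the second library of each group as a biological replicate but does not say whether it came from a separate culture, so a p-value here speaks to the spread of these libraries alone, some of it possibly technical.

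The nuclear lamina is a meshwork of lamins under the inner nuclear membrane, and large, gene-poor, mostly silent chromosome domains touch it. Dam is a bacterial methyltransferase that marks the adenine of GATC sites, and fused to lamin B1 it marks DNA that comes close to the lamina. The m6A-Tracer is a GFP fusion that binds DNA so marked, and VP16 is a viral domain that activates transcription where it is brought to DNA.

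The VP16 libraries held 18774905 to 24033306 counted reads over the 36502 genes of the table, and VP16_uninduced of index set 1 was the shallowest. Levels are given as CPM, the share of a library taken by a gene after TMM scaling, except the marker sums that follow, which are per library total without TMM. Fibroblast markers summed to 6595 to 7127 CPM in the uninduced libraries and 7199 to 7621 CPM with Dam-LaminB1, with 8 of 12 listed genes at 1 CPM or more in each library and FAP at 0. Blood and endothelial markers summed to 1.34 to 3.20 and 2.62 to 6.03 CPM, with none of 11 genes at 1 CPM in both libraries of a group. The epithelial list summed to 428 to 546 and 456 to 568 CPM, with CDH1, KRT14 and KRT17 among the genes at 0 in the uninduced libraries. Neural markers summed to 73.8 to 91.3 and 88.2 to 105 CPM, with NEFM at 0 in all of these libraries. The part of these other markers in the results below was not tested. The first principal component (62.2% of variance) separated the index sets, at -34.6 to -23.0 and 24.6 to 32.3. The second (14.7%) ordered the conditions in each set, from 24.9 through -1.28 to -17.9 in set 1 and from 9.89 through -4.62 to -11.0 in set 2.

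With Dam-LaminB1 and the tracer, 900 genes were higher and 673 were lower than in uninduced cells among 16139 tested (9.75% called, 5.58% higher and 4.17% lower). The call is a Benjamini-Hochberg adjusted p under 0.05 in edgeR's quasi-likelihood test with the index set as a block. Those called higher included 10 of 12 tested OAS, IFIT and MX antiviral genes, 20 of 39 collagens and matrix glycoproteins and 11 of 24 cholesterol synthesis genes, and those called lower included 24 of 44 genes of DNA replication and G1/S. The changes were small: 86.5% of the called genes moved by less than 1.5-fold, with a median size of 0.27 on the log2 scale, and 73 rose but 4 fell by more than 2-fold. Before adjustment 3961 genes had p under 0.05, where 807 would be so by chance. The count depends on the design of the fit. No gene was called by edgeR without the block, or with all 12 libraries in the fit with or without it. These 3 fits had 555, 623 and 189 genes at unadjusted p under 0.05. All 1573 genes kept their direction in them, but they compare the same libraries, so that gives no separate support. DESeq2 with the block called 264. Without VP16_uninduced of index set 1 the count was 277, and without VP16_tracer_Dam of index set 1 it was 375, while without VP16_tracer_Dam of index set 2 it was 3082.

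The direction of change was shared between index sets for 898 of the 900 genes called higher and for all 673 called lower, against 66.6% of all genes tested. The call uses the changes of both sets, so these shares describe the calls. The exceptions were SERPINB2 and XAF1, which rose in index set 1 only (XAF1 by 1.61 against -0.36 and SERPINB2 by 2.55 against -0.03 on the log2 scale). Sizes differed: the change was larger in index set 1 for 86.7% of genes called higher and 92.4% of those called lower, against 65.7% of all. The median log2 change was 0.44 in set 1 and 0.24 in set 2 for genes called higher, and -0.28 and -0.14 for those called lower. Across the 13590 genes with a mean of at least 1 CPM, the changes in the sets had a Pearson correlation of 0.428, a description across genes, which are not independent. The 4 libraries did not overlap between the groups for 542 of the genes called higher and 506 of those called lower, and for 30.0% of all genes tested.

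**Figure D1:**
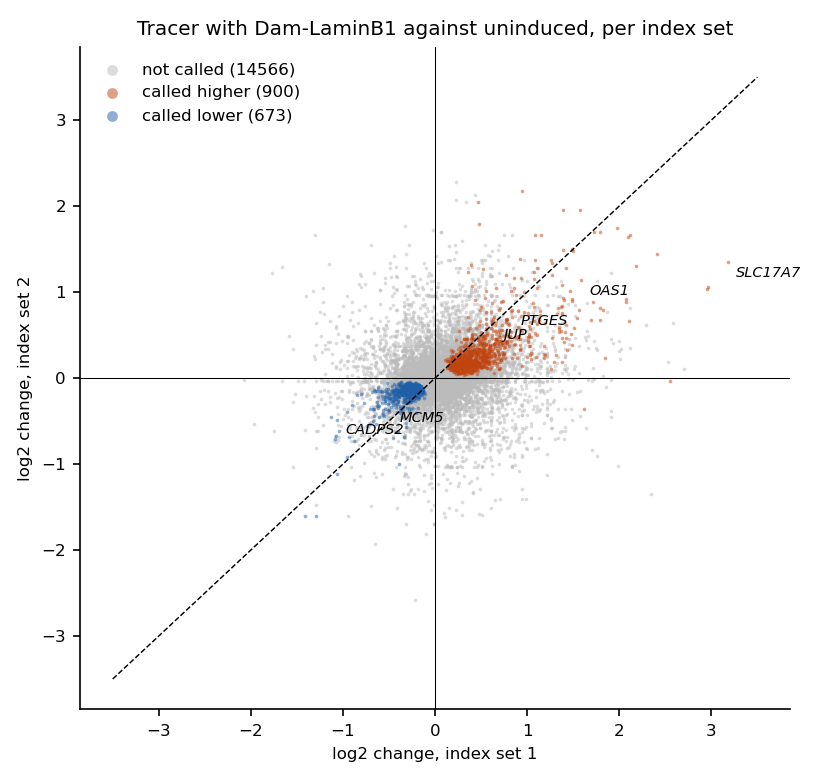
Log2 change of each tested gene with tracer and Dam-LaminB1 against uninduced, in index set 1 (x axis) and index set 2 (y axis), with the 900 genes called higher in red, the 673 called lower in blue and the rest in grey. The dashed line marks equal change, and most called genes lie on the side of the larger change in set 1.

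OAS1, an enzyme that senses double-stranded RNA and makes the signal for RNase L, had the smallest p of all genes. Its level was 13.1 and 2.12 CPM in the uninduced libraries of sets 1 and 2, 29.4 and 2.68 CPM with the tracer, and 39.6 and 4.76 CPM with Dam-LaminB1 added. It rose in each set, but the sets started so far apart that the groups overlapped. The pooled log2 change was 1.52 ± 0.12 (SE, adjusted p = 4.33e-07, edgeR), with 1.59 in set 1 and 1.14 in set 2. The gene lies on chromosome 12 at 113344582 to 113369991 (GRCh37).

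JUP (chromosome 17, 39775692 to 39943183), the plakoglobin that links desmosomal and classical cadherins to the cytoskeleton, rose to nearly the same levels in both sets. It stood at 25.5 and 26.5 CPM uninduced, 34.6 and 35.0 CPM with the tracer and 40.1 and 40.8 CPM with Dam-LaminB1, so that no condition overlapped another. Its change was 1.56-fold (0.64 ± 0.068, adjusted p = 9.24e-06).

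PTGES (chromosome 9, 132500610 to 132515326), the microsomal synthase of prostaglandin E, had its whole rise at the tracer step. Levels were 10.6 and 9.83 CPM uninduced, 21.2 and 16.7 CPM with the tracer and 19.1 and 17.1 CPM with Dam-LaminB1. Both induced conditions lay above both uninduced libraries and overlapped each other. The combined log2 change was 0.82 ± 0.098 (adjusted p = 2.49e-05), made up of 0.88 at the tracer step (adjusted p = 3.92e-05) and -0.06 at the Dam-LaminB1 step (adjusted p = 0.863).

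MCM5 (chromosome 22, 35796056 to 35820495), a subunit of the replicative helicase, fell from 134 and 156 CPM to 124 and 140 CPM with the tracer and 96.4 and 123 CPM with Dam-LaminB1. The libraries with Dam-LaminB1 lay below the uninduced ones. The log2 change was -0.41 ± 0.049 (adjusted p = 2.49e-05), of which -0.27 came at the Dam-LaminB1 step (adjusted p = 0.0217) and -0.14 at the tracer step (adjusted p = 0.224).

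**Figure D2:**
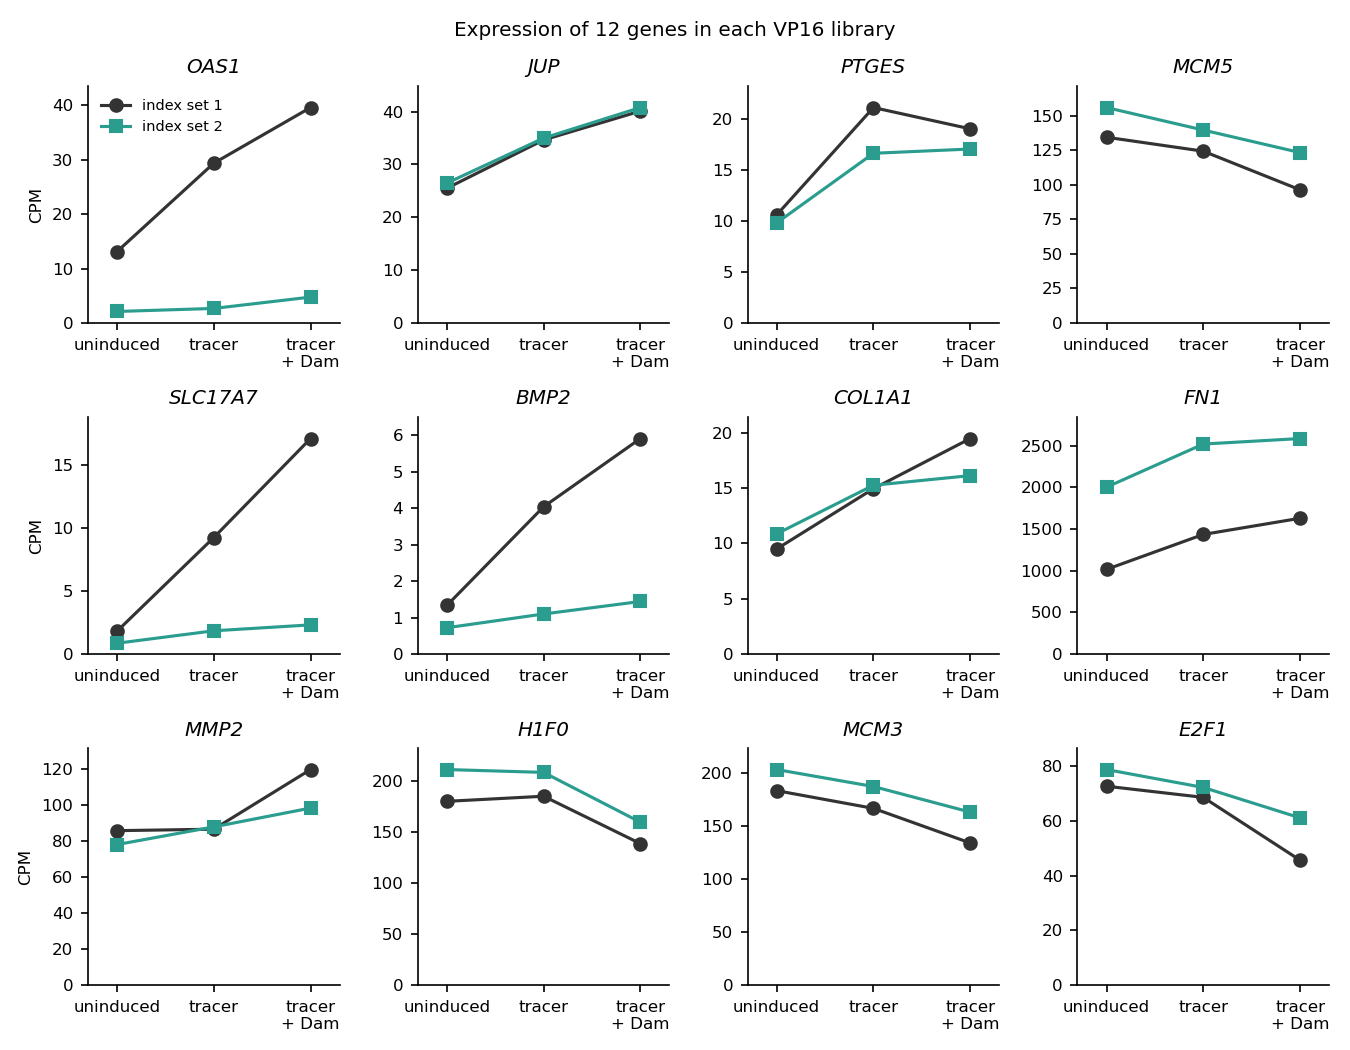
Level in CPM (y axes from 0) of 12 genes in the uninduced, tracer and tracer with Dam-LaminB1 libraries, with a line for each index set. JUP and COL1A1 rose and MCM5, MCM3 and E2F1 fell through both steps in both sets, PTGES moved at the tracer step, and H1F0 at the Dam-LaminB1 step.

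The largest rise among genes with a mean of at least 1 CPM was in SLC17A7, a vesicular glutamate transporter of neurons. It stood at 1.81 and 0.857 CPM uninduced and at 17.1 and 2.32 CPM with Dam-LaminB1, so the groups did not overlap. The rise was 6.80-fold in the pooled fit (log2 change 2.77 ± 0.27, adjusted p = 1.28e-04), with 3.18 in set 1 against 1.34 in set 2. BMP2, a secreted growth factor of bone formation, rose from 1.33 and 0.721 to 5.92 and 1.44 CPM (1.78 ± 0.25, adjusted p = 1.11e-04), again further in set 1.

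Other large rises were in genes at low levels. C4orf26 rose by 2.11, the neurofilament gene NEFL by 1.90, the cas-family scaffold NEDD9 by 1.67, GALNTL2 by 1.61 and the integrin subunit ITGAX by 1.59 on the log2 scale. NEFL stood at 1.23 and 0.180 CPM uninduced and 4.48 and 0.786 CPM with Dam-LaminB1, and ITGAX at 7.04 and 2.16 against 25.2 and 3.80 CPM. The groups overlapped for both of these genes because set 2 was low throughout. SEMA6C, a transmembrane semaphorin, rose from 4.75 and 3.61 to 12.6 and 6.95 CPM with no overlap (1.20 ± 0.14, adjusted p = 2.49e-05). The matrix glycoprotein FSTL1 rose from 50.0 and 51.3 to 72.1 and 68.5 CPM (0.47 ± 0.057, adjusted p = 2.49e-05).

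Of the OAS, IFIT and MX families, which bind viral RNA or trap viral particles, 10 of 12 tested genes rose and none fell. Of the other interferon effectors 19 of 44 rose, and of the RNA and DNA sensors and signalling genes 7 of 22, with none lower in either list. None of 5 tested ligands and receptors was called. The called shares were 83.3%, 43.2%, 31.8% and 0.0% in that order, against 9.75% of all genes. The median log2 changes were 0.55, 0.37, 0.17 and 0.05, against 0.0085 over all genes tested.

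The OAS, IFIT and MX genes together gave 423 and 162 CPM in the uninduced libraries of sets 1 and 2, 639 and 173 CPM with the tracer and 692 and 208 CPM with Dam-LaminB1. Index set 1 thus held more of these transcripts in every condition, and its median change was 0.64 against 0.44 in set 2. IFIT1, which binds uncapped viral RNA, rose from 61.2 and 16.1 to 105 and 25.8 CPM, by 0.78 and 0.68 in the sets. IFIT2 rose from 48.8 and 16.1 to 66.4 and 24.1 CPM (0.50 ± 0.072, adjusted p = 1.46e-04). MX2, a dynamin-like restriction factor, rose from 9.12 and 1.80 to 20.9 and 2.14 CPM, by 1.19 in set 1 and 0.24 in set 2. In IFI27 the contrast was wider, from 6.67 to 16.1 CPM in set 1 and from 0.766 to 0.830 CPM in set 2.

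Among the sensors, IFIH1 (the RNA sensor MDA5) rose from 19.6 and 8.57 to 32.1 and 10.9 CPM (0.58 ± 0.094, adjusted p = 3.61e-04). Its relative DHX58 rose by 0.66 and USP18, which removes ISG15 and dampens receptor signalling, by 1.05. IRF3, a transcription factor that these sensors activate, rose by 0.25 in each set. Of the effectors, SAMD9L rose by 0.59 and the membrane protein IFITM1 by 1.04. IFITM1 stood at 4.32 and 3.52 CPM uninduced and at 11.7 and 4.89 CPM with Dam-LaminB1, without overlap. In the GFP clone the same lists had medians of 0.70 (OAS, IFIT and MX) and 0.48 (other effectors) in index set 1, and 0.13 and 0.07 in set 2. The GFP_tracer_Dam library of index set 1 stood apart, as described below.

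The promoters of these genes are shown because interferon acts through a short repeat, the interferon-stimulated response element. Its core was searched as GAAA, any 2 bases, then GAAA on both strands of the RefSeq promoters (250 bases before to 50 after each start, GRCh38.p14), which matched 69.4% of the genes tested. The core was present in 17 of the 26 promoters of called genes of the 3 interferon lists (65.4%), in 5.71% of those of all genes called higher, in 2.82% of those of tested genes and in 3.65% of all promoters of the table. The median GC content of those 26 promoters was 51.7%, against 65.0% for tested genes, and its part in the matches was not tested. A match is a description of the sequence only, and the uncalled members of these lists were not compared. The capitals mark the first match, on the strand of the gene, for IFIT1 (chr10:89392497-89392526), IFIT3 (chr10:89327831-89327860), IFI44 (chr1:78649761-78649790), MX1 (chr21:41420559-41420588) and RTP4 (chr3:187368333-187368362).
IFIT1: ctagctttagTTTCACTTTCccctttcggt
IFIT3: agccgttaggTTTCATTTTCctcctcccaa
IFI44: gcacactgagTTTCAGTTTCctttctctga
MX1: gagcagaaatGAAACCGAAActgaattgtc
RTP4: tccatacacaGAAACAGAAActgaaccgaa

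The promoter of OAS1 held no match to that core in the window searched, but the search fixed the spacing between the GAAA repeats. The 250 bases before the OAS1 start (chr12:112906712-112906961, plus strand) are shown because OAS1 led the response. The single GATC, the site that Dam methylates, is in capitals. Near the end of these bases lies gaaacgaaa, with the repeats closer together than the search allowed. The lack of a match therefore does not show that the promoter lacks an interferon-stimulated response element.
OAS1: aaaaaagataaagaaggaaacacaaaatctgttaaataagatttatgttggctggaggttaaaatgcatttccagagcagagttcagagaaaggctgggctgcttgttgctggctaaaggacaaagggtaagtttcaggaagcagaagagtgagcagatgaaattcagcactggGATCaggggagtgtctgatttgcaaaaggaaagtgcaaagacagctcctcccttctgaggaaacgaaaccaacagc

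Of 22 tested genes of class I antigen presentation 9 rose and none fell (40.9%, against 9.75% of all genes called), with a median of 0.16. The heavy chain genes HLA-C (0.40), HLA-B (0.42) and HLA-E (0.34) were among those that rose. HLA-B stood at 46.8 and 19.1 CPM uninduced and at 67.3 and 22.6 CPM with Dam-LaminB1. The HLA genes are near-identical in parts, so reads may be split between them. Of 32 tested p53 targets 6 rose and 2 fell (25.0% called, median 0.07). FDXR, a mitochondrial reductase, rose by 0.37, TP53I3 by 0.39 and TP53INP1 by 0.36 on the log2 scale. The growth arrest gene GADD45A fell by 0.28.

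Of 39 collagens and matrix glycoproteins 20 rose and 2 fell (median 0.26), of 26 matrix proteases and inhibitors 13 rose and none fell (median 0.25), and of 18 integrins 6 rose and none fell (median 0.22). The called shares of 56.4%, 50.0% and 33.3% compare with 9.75% of all genes. Fibroblast markers, which share COL1A1, FN1, MMP2 and MMP14 with these lists, had 5 of 8 genes higher and 1 lower.

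COL1A1, the main chain of type I collagen, stood at 9.49 and 10.9 CPM uninduced, 14.9 and 15.2 CPM with the tracer and 19.5 and 16.1 CPM with Dam-LaminB1. The uninduced libraries were lowest and the log2 change was 0.80 ± 0.11 (adjusted p = 9.18e-05), with 1.03 in set 1 and 0.57 in set 2. FN1, fibronectin, was the most abundant of the list. It rose from 1015 to 1628 CPM in set 1 and from 2001 to 2584 CPM in set 2, and the groups overlapped because the sets differ in level. FBN1, the microfibril protein fibrillin, rose from 133 and 146 to 180 and 180 CPM (0.37 ± 0.046, adjusted p = 2.49e-05). LAMA5, a laminin chain of basement membranes, rose from 14.5 and 17.1 to 22.4 and 25.0 CPM, with 0.60 at the tracer step and -0.01 at the Dam-LaminB1 step.

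The collagen prolyl hydroxylase subunits P4HA2 (0.44) and P4HA1 (0.41) also rose, each without overlap of the groups. MMP2, a gelatinase, stood at 85.8 and 78.0 CPM uninduced, 86.6 and 87.9 CPM with the tracer and 120 and 98.3 CPM with Dam-LaminB1. Its log2 change was 0.32 at the Dam-LaminB1 step (adjusted p = 0.0341) and 0.09 at the tracer step (adjusted p = 0.575). In set 2 its steps were alike, 0.17 and 0.16, and the difference between steps did not pass (adjusted p = 0.971). The membrane-anchored MMP17 rose by 0.56, MMP9 by 0.46 and the collagen cross-linking enzyme LOX by 0.32. Among integrins ITGA10 (0.38), ITGB3 (0.38), ITGA2 (0.26) and ITGA5 (0.18) rose. ITGA2, a collagen receptor subunit, stood at 643 and 789 CPM uninduced against 828 and 882 CPM. In the GFP clone the collagen and glycoprotein list had a median of 0.59 in index set 1, whose GFP_tracer_Dam library stood apart, and 0.01 in set 2.

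Of 20 desmosome and adherens junction genes 6 rose and 1 fell (35.0% called, against 9.75% of all genes, median 0.14). Beside JUP these included the desmosomal plaque protein DSP, from 16.5 and 23.1 to 23.9 and 28.4 CPM (0.41 ± 0.082), the mesenchymal cadherin CDH11 (0.43) and the p120 catenin CTNND1 (0.20). The clustered protocadherins, neuronal adhesion genes in tandem arrays, had 6 of 25 higher (24.0%), none lower and a median of 0.44. Most are at low levels: PCDHB5 stood at 1.28 and 1.08 CPM uninduced and 3.37 and 1.97 CPM with Dam-LaminB1, while PCDHGC3 stood at 74.5 and 98.7 against 104 and 117 CPM. The genes of the gamma cluster share exons, so reads may be split between them.

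Of 17 genes of prostaglandin synthesis and signalling 4 rose and 1 fell (29.4% called, against 9.75% of all genes, median 0.24). PTGS2, the inducible cyclooxygenase that supplies PTGES, stood at 2.72 and 2.39 CPM uninduced, 2.96 and 2.77 CPM with the tracer and 11.8 and 4.50 CPM with Dam-LaminB1, highest with Dam-LaminB1 in both sets. Its combined log2 change was 1.62 ± 0.34 (adjusted p = 0.0459), and neither step passed alone (adjusted p = 0.93 and 0.296). FAM213B, a prostamide synthase, rose by 0.57, the receptor PTGFR by 0.89, and the exporter ABCC4 fell by 0.26 on the log2 scale. Over the 6 libraries the genes whose levels followed PTGES most closely were WDR27, EBI3, PARS2, ABI1, UGP2 and HAGH. Their Pearson r was 0.997 to 0.999 among 10847 genes compared, chosen as the best of that many, after removal of the index set means. It describes the shape of the change and not its size: their combined log2 changes were 0.07 to 0.25, against 0.82 for PTGES.

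Immediate-early genes split, with 5 of 25 higher and 5 lower (40.0% called, against 9.75% of all genes, median -0.0061). NR4A1, an orphan nuclear receptor, rose from 3.20 and 2.61 to 9.16 and 3.45 CPM (1.07 ± 0.20, adjusted p = 0.00369). FOSL1 (-0.47), MYC (-0.42) and JUN (-0.21) fell. FOSL1, an AP-1 subunit, stood at 267 and 241 CPM uninduced, 179 and 201 CPM with the tracer and 175 and 192 CPM with Dam-LaminB1, and was called at the tracer step (-0.42, adjusted p = 0.0290). MYC stood at 56.1 and 70.3 CPM uninduced, 49.4 and 68.6 CPM with the tracer and 37.5 and 57.5 CPM with Dam-LaminB1, and was called at neither step. Of 25 NF-kB targets and cytokines only IL6 (1.00) and IL8 (0.64) were called, both higher (8.0%, near the 9.75% of all genes). IL6 stood at 6.83 and 5.77 CPM uninduced and 17.9 and 8.00 CPM with Dam-LaminB1. Of 17 ERK feedback genes IL8 and ETV5 (0.15) rose (11.8%, also near that background). Of 26 TGF-beta, YAP and actin targets 4 rose, including the smooth muscle gene CNN1 (1.31) and PMEPA1 (0.33), and 2 fell, including AMOTL2 (-0.25). The share called was 23.1%.

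In metabolism, 11 of 24 cholesterol synthesis genes rose and none fell (45.8%, against 9.75% of all genes called, median 0.16). MVD rose by 0.38, MSMO1 by 0.25, FDFT1 (squalene synthase) by 0.21 and SREBF2, the regulator of the pathway, by 0.21. SREBF2 stood at 218 and 243 CPM uninduced and at 268 and 265 CPM with Dam-LaminB1, without overlap. Of 32 HIF targets and glycolysis genes 9 rose and none fell (28.1%), but the list median was 0.05. CA9, a carbonic anhydrase induced by low oxygen, rose from 24.6 and 26.1 to 36.8 and 33.0 CPM, at the tracer step (0.49, adjusted p = 0.00144). ALDOC, a brain aldolase, rose by 0.40.

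Of 82 cytosolic ribosomal proteins 14 fell and none rose, and 81 of 82 had a negative change, with a median of -0.10. RPS7 stood at 196 and 190 CPM uninduced and 163 and 175 CPM with Dam-LaminB1. Of 29 heat shock and chaperone genes 6 fell, including HSPA8 (-0.25) and the mitochondrial chaperonin pair HSPD1 (-0.20) and HSPE1 (-0.21), and 1 rose (median -0.04). Of 35 ATF4 targets 7 fell and 2 rose (median -0.06), among them the amino acid transporters SLC1A5 (-0.22) and SLC7A1 (-0.21) and the higher DDIT4 (0.48), an inhibitor of mTORC1. Of 19 NRF2 targets and metallothioneins 5 fell, with the ferritin heavy chain FTH1 (-0.31) and SRXN1 (-0.45) first. NOP56, of the snoRNA particles, fell from 172 and 174 to 127 and 147 CPM, and TOMM40, the pore of the outer mitochondrial membrane, from 128 and 107 to 92.3 and 88.8 CPM. Of 76 nuclear respiratory chain genes 1, ATP5G1, was called (-0.25). The called shares of the ribosomal, heat shock, ATF4, NRF2 and respiratory lists were 17.1%, 24.1%, 25.7%, 26.3% and 1.32%, against 9.75% of all genes. They were not matched for level. Among tested genes with a mean of at least 61.03 CPM, 6.42% were called higher and 11.3% lower.

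DNA replication had the largest share of genes called lower among the 34 lists. Of 44 tested genes of replication and G1/S 24 fell and none rose (54.5%, against 9.75% of all genes called), 42 of 44 had a negative change, and the median was -0.21, with -0.32 in set 1 and -0.11 in set 2. Summed, these genes gave 4794 and 5075 CPM uninduced, 4506 and 4760 CPM with the tracer and 3888 and 4638 CPM with Dam-LaminB1. MCM2 to MCM7, the 6 subunits of the helicase ring, were all called lower. MCM3 fell from 183 and 203 to 134 and 163 CPM (-0.38 ± 0.045, adjusted p = 2.49e-05) and MCM6 from 140 and 177 to 91.2 and 140 CPM (-0.47 ± 0.055, adjusted p = 6.26e-05). MCM4, the most abundant of the MCM genes named here, fell from 453 and 493 to 336 and 416 CPM. UNG, which removes uracil from DNA, fell from 69.3 and 69.2 to 46.9 and 53.4 CPM (-0.47 ± 0.062, adjusted p = 7.96e-05). E2F1, a transcription factor of the G1/S genes, stood at 72.7 and 78.8 CPM uninduced, 68.7 and 72.3 CPM with the tracer and 45.7 and 61.2 CPM with Dam-LaminB1.

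Of 30 mitosis genes 8 fell and none rose (26.7%, against 9.75% of all genes called), with a median of -0.13. CDC20, an activator of the anaphase-promoting complex, fell from 263 and 266 to 195 and 232 CPM, and PLK1 by 0.25 and MKI67 by 0.22 on the log2 scale. Of 55 replication-dependent histone genes only 23 had enough reads to be tested, and of these 5 fell and none rose (21.7%, median -0.24). With no filter on low counts the median was -0.12. HIST1H2BK stood at 110 and 64.7 CPM uninduced and at 81.9 and 50.9 CPM with Dam-LaminB1. H1F0, the linker histone of slowly dividing cells, lies outside that list. It stood at 180 and 212 CPM uninduced, 185 and 209 CPM with the tracer and 139 and 160 CPM with Dam-LaminB1, so that the last pair lay below the other 4 libraries (-0.39 ± 0.043, adjusted p = 1.13e-05). In the GFP clone the replication list had a median of -1.65 in index set 1 and 0.05 in set 2, and H1F0 changed by 1.12 and -0.29. The values of set 1 come from the GFP_tracer_Dam library that stood apart.

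E2F factors bind a short element in promoters of replication genes, and it was searched as TTTNNCGC on both strands. The motif was in 13 of the 20 promoters of called replication genes (65.0%) and in 16.8% of those of all genes called lower, which include them. It was in 10.3% of those of tested genes and in 6.90% of all promoters. Uncalled members of the list were not compared, so the shares describe sequence only and say nothing about the calls. The replication promoters also had a higher GC content (median 68.0%, against 65.0% for tested genes). Windows around the first match are shown for MCM2 (chr3:127598403-127598430), MCM3 (chr6:52284899-52284926), E2F1 (chr20:33686490-33686517), CDC6 (chr17:40287876-40287903) and PCNA (chr20:5126664-5126691), on the strand of the gene.
MCM2: gtgaaccactTTTCGCGCgaaacctggt
MCM3: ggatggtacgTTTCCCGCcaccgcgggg
E2F1: cgggtccggcGCGTTAAAgccaatagga
CDC6: gccattcggaTTTGGCGCgagcgcggct
PCNA: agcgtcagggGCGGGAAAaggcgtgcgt

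The 250 bases before the start of MCM6 (chr2:135876444-135876693, minus strand) held 4 matches, in 2 places where the matches on opposite strands overlap, all in capitals. MCM6 is shown because it fell most of the MCM genes named here.
MCM6: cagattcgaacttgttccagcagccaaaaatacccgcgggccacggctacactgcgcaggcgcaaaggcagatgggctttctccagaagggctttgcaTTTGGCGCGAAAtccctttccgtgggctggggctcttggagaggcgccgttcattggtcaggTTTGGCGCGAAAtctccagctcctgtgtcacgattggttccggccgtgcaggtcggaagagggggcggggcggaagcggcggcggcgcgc

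**Figure D3:**
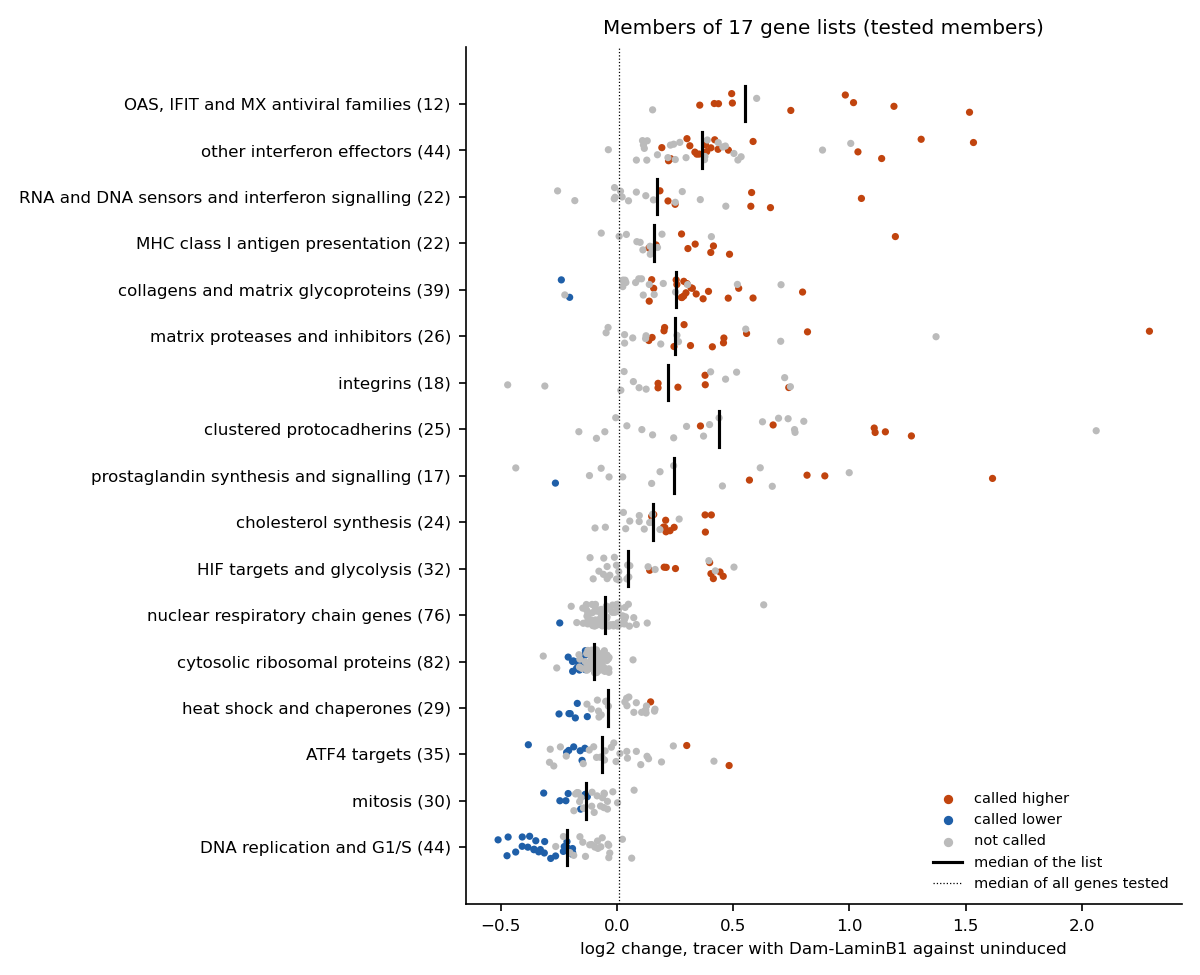
Log2 change with tracer and Dam-LaminB1 against uninduced (x axis) for the tested members of 17 gene lists, number tested in brackets, with called genes in red (higher) or blue (lower), a black bar at the list median and a dotted line at the median of all genes. The interferon and matrix lists lie to the right, and replication and mitosis to the left.

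Of the genes of the lamina itself, LMNB1 stood at 163 and 184 CPM uninduced and 121 and 174 CPM with Dam-LaminB1, and did not pass (-0.25 ± 0.074, adjusted p = 0.0744). Reads of the Dam-LaminB1 transgene could be counted to LMNB1, which was not tested. Of 18 genes of the lamina and inner nuclear membrane 3 fell: LMNB2 (-0.21), TMEM201 (-0.30) and TMPO (-0.19). The share called was 16.7%, against 9.75% of all genes. Of 24 genes of H3K9 methylation and heterochromatin 3 fell and 1 rose (also 16.7%). Those lower were the corepressor TRIM28 (-0.19), the HP1 protein CBX3 (-0.19) and the methyltransferase SUV39H2 (-0.30). The demethylase KDM4B (0.21) was higher. In lists of this size both shares rest on a few genes, and neither was matched for level. EHMT1 and EHMT2, which dimethylate H3K9, changed by 0.03 ± 0.049 and -0.02 ± 0.049 and did not pass (adjusted p = 0.741 and 0.879).

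Among called genes with a mean of at least 1 CPM and a negative change in both sets, the largest falls were at a few CPM. RP11-844P9.2, FCRL3, SPAG17, CYP4F30P and SNORA73B changed by -1.20, -1.07, -0.98, -0.93 and -0.92. FCRL3 stood at 2.99 and 0.451 CPM uninduced and 1.31 and 0.306 CPM with Dam-LaminB1, with overlap between the groups. Better measured was CADPS2, a vesicle priming protein, which fell from 25.5 and 27.9 to 12.1 and 20.0 CPM without overlap (-0.75 ± 0.11, adjusted p = 8.74e-04). The muscarinic receptor CHRM3 fell from 11.8 and 13.1 to 7.02 and 8.91 CPM (-0.64 ± 0.11, adjusted p = 5.86e-04). OR51B5 (-0.69) and AC104389.28 (-0.47) lie in one overlapping region of chromosome 11, so their reads may not be told apart, and CYP4F30P and MAGEA2B (-0.65) have near-identical relatives. Of 430 zinc finger genes 4 rose and 3 fell, and of 23 olfactory receptor and keratin-associated genes OR51B5 was the 1 called. These shares, 1.63% and 4.35%, lie below the 9.75% of all genes called, but were not matched for level. Among tested genes with a mean of up to 2.28 CPM, 1.81% were called higher and 0.198% lower.

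The tracer libraries were used to describe which of these changes were graded. At the tracer step 128 genes rose and 11 fell (0.861% called), and at the Dam-LaminB1 step 5 rose and 8 fell (0.0806%). Without the block both counts were 0 (149 and 99 genes at unadjusted p under 0.05). Leaving out 1 library moved them to between 22 (without VP16_uninduced of set 1) and 813 (without VP16_tracer_Dam of set 2) and to between 1 (without VP16_tracer_Dam of set 1) and 1022 (without VP16_tracer_Dam of set 2). The steps share the tracer libraries and the combined change is their sum, so these are descriptions side by side. Of the genes called higher in the combined comparison, 543 of 900 (60.3%) had the tracer library between the other 2 in both sets. Of those called lower it was 497 of 673 (73.9%), against 17.5% of all genes tested. The call selects genes with a wide gap between uninduced and Dam-LaminB1, and another library falls within a wide gap more often. Part of the higher shares thus follows from the call, and how much was not tested. The median share of the change present at the tracer step was 61.4% for genes called higher and 50.2% for those called lower.

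JUP rose by 0.42 and 0.22 and FSTL1 by 0.32 and 0.15 at the 2 steps, and SDC3, a cell surface proteoglycan, by 0.38 and 0.20, each called at the tracer step only. OAS1 changed by 1.02 at the tracer step (adjusted p = 6.32e-04) and by 0.50 at the Dam-LaminB1 step (adjusted p = 0.0738) in the pooled fit, but the order of size differed between sets, with 1.16 and 0.43 in set 1 and 0.33 and 0.81 in set 2. The genes called at the Dam-LaminB1 step were the higher NOV, KCNJ2, BMF, VCAN and MMP2 and the lower H1F0, MCM3, MCM5, MCM6, E2F1, CDK14, CCDC144NL and AC091969.1, listed in full after their values were seen. The test of the difference between steps called 3 genes (0.0186%). PTGES and the semaphorin SEMA4B moved further at the tracer step and H1F0 further at the Dam-LaminB1 step, with differences of -0.94, -0.45 and -0.41 (adjusted p = 0.045 for each). For the other named genes the steps did not pass a test of difference.

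**Figure D4:**
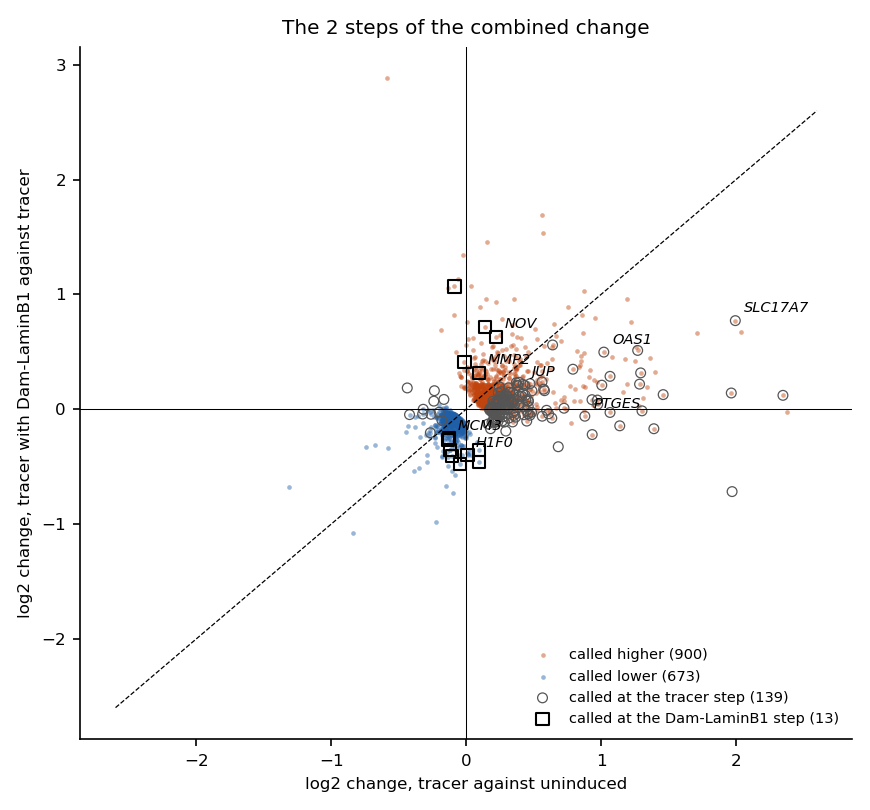
Log2 change of the called genes at the tracer step (x axis) and the Dam-LaminB1 step (y axis), with genes called at a step circled (139, tracer) or boxed (13, Dam-LaminB1) and a dashed line at equal steps. The values are from the fit over both sets, in which PTGES lies along the x axis and H1F0 along the y axis.

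Domains at the lamina are gene-poor and mostly silent, so the calls were set against local gene density and expression level. Tested genes were put in 4 bins by the number of genes within 500 kb in the deposited GRCh37 positions. The share called higher was 4.86%, 4.69%, 5.43% and 7.35% from the sparsest to the densest bin, and the share called lower was 4.37%, 4.49%, 3.97% and 3.87%. By mean level, from low to high, 1.81%, 6.72%, 7.36% and 6.42% were called higher and 0.198%, 1.24%, 3.92% and 11.3% lower, with medians of 0.09, 0.05, 0.0045 and -0.03. The power to call a gene also grows with its counts, and the called shares of the gene lists were not matched for level. Of the called genes, 871 higher and 642 lower were protein-coding, of 13109 tested.

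**Figure D5:**
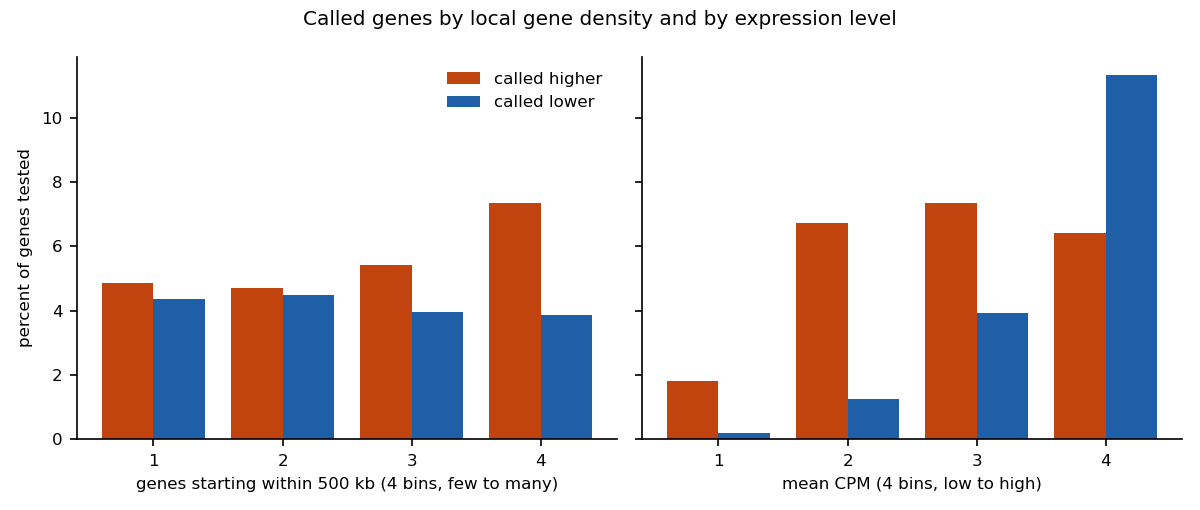
Percent of tested genes called higher (red) and lower (blue), in 4 bins of the number of genes within 500 kb (left) and of mean CPM (right). The share called higher is 7.35% in the densest bin, and the share called lower is 11.3% in the most highly expressed bin.

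Genes with no read in either GFP_uninduced library numbered 6897. In index set 1, 1301 of them had a read in VP16_uninduced, 1573 with the tracer and 1983 with Dam-LaminB1, and in set 2 the numbers were 1249, 1386 and 1368. The library totals rose in the same order in set 1, from 18774905 to 24033306, while they were alike in set 2. In CPM without TMM scaling these genes summed to 88.5, 98.1 and 120 in set 1 and 72.3, 80.0 and 80.0 in set 2, so the ratio of Dam-LaminB1 to uninduced was 1.36 and 1.11. Only 3 of them had enough reads to be tested and none was called.

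GATC was present in 46.5% of the promoters of genes called higher, 34.9% of those called lower, 39.0% of those tested and 41.7% of all promoters. The AP-1 motif TGANTCA was in 6.56%, 3.66%, 5.09% and 7.76%. Median GC content was 65.7% and 65.3% in the promoters of genes called higher and lower. For PTGES the 250 bases before the start (chr9:129753043-129753292, minus strand) are given because it made its whole rise at the tracer step. They hold a single GATC, in capitals.
PTGES: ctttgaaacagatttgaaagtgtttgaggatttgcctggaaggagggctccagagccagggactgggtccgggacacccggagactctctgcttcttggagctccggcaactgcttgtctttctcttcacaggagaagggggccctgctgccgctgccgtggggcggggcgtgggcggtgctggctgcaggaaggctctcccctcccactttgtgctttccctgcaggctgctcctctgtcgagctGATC

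The GFP clone carries the tracer without VP16, and the difference between clones in the combined response was tested. With 1 clone for each construct, such a difference could not be assigned to VP16. Over 12 libraries with the block, edgeR called none of 17262 genes (0.0%, smallest adjusted p = 0.906), with 324 at unadjusted p under 0.05 where 863 would be so by chance. DESeq2 with the block also called 0. The edgeR fit over 12 libraries also called 0 genes in the VP16 combined response itself, so its 0 calls here cannot show whether the clones differ. The GFP_tracer_Dam library of index set 1 stood apart, with MCM5 at -2.10 and HSPA8 at -3.05 against its uninduced partner, while index set 2 gave -0.12 and 0.22. The interferon, collagen and replication medians given above had the same sign in both clones in set 1. Cholesterol synthesis and ATF4 targets did not, with GFP medians of -0.84 and 1.88 where the VP16 clone had 0.23 and -0.09. Their GFP medians in set 2 were 0.07 and -0.09. In set 1 the GFP changes of the leading genes were 0.17 for OAS1, 1.05 for JUP, 1.00 for PTGES and 0.40 for SLC17A7, where the VP16 clone had 1.59, 0.65, 0.84 and 3.18, so the values for JUP and PTGES were larger in the GFP pair. In set 2 the GFP changes were 0.14, -0.26, 0.10 and -0.13 in the same order, where the VP16 clone had 1.14, 0.62, 0.79 and 1.34. These are single pairs of libraries and carry no test. Without the 2 GFP libraries that stood apart 0 genes were called and 1058 had an unadjusted p under 0.05.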

How the data were processed

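RNA was measured in 12 libraries, 2 in each of 6 groups, and the 6 VP16 libraries were fitted here. The authors deposited raw counts in 1 table of 36502 Ensembl genes with GRCh37 positions. The submitters' processing notes name TopHat 1.4.0, Bowtie 0.12.7, HTSeq and GRCh37. Strand and overlap settings of HTSeq are not given in the sources used, so overlapping genes may share reads. Trizol RNA and Illumina TruSeq RNA libraries were used, per the labels' protocols.

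The members, gene lists and rules were chosen with earlier results of these data known. Genes passing filterByExpr were scaled by TMM and tested by edgeR 4.0.16's quasi-likelihood test (robust, 2 residual degrees of freedom, R 4.3.3) with terms for group and index set, adjusted by Benjamini-Hochberg at 0.05. The SE is the change divided by the square root of F. Changes within an index set use a prior count of 2. Index sets come from the titles, which reuse 6 index sequences in 2 sets. Deviations from group means correlated at 0.689, 0.672 and 0.701 within a set, so the sets pair the libraries. Replicates were not duplicates (chi-square per degree of freedom 20.9 to 27.2).

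Named genes were the 4 markers, LMNB1, EHMT1 and EHMT2, up to 15 per direction by size (mean of at least 1 CPM, same sign in both sets), up to 10 per direction by p, up to 4 per list of 34 by p, and 6 most like PTGES. Others were named after their values were seen. Alternatives were the fit without the block, other libraries, RLE factors, other filters, DESeq2 1.42.0, limma 3.58.1 voom, a test against a fold of 1.5 and leaving out each library. The difference between steps was added after seeing the data. On simulated counts for this comparison (15887 genes), 31 of 50 genes changed 1.25-fold, 32 of 49 changed 1.5-fold, 35 of 48 changed 2-fold and 48 of 48 changed 4-fold were called, with 16 false calls.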

Additional observations from a re-analysis of the deposited data

How the results depend on the processing

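The calls rest on the index set as a block and on fitting the VP16 clone alone. The replicate block was part of the reported fit. With no replicate block, and with all 12 libraries with or without it, 0 genes were called in the combined response (0 higher and 0 lower), at the tracer step and at the Dam-LaminB1 step. A test against a fold of 1.5 called 7, 7 higher and 0 lower, and 0 at each step. DESeq2 with the block called 264 (159 higher, 105 lower), 21 at the tracer step and 2 at the Dam-LaminB1 step. With no filter on low counts the steps had 396 and 190 calls. Leaving out each library gave 277 to 3082 combined calls (188 to 1649 higher, 89 to 1433 lower), 22 to 813 at the tracer step and 1 to 1022 at the Dam-LaminB1 step, the lowest without VP16_uninduced or VP16_tracer_Dam of index set 1 and the highest without VP16_tracer_Dam of index set 2. Of the 1573 combined calls, 1531 were called with RLE factors, 1469 by limma-voom, 1371 in the 4 libraries alone and 260 by DESeq2, in the same direction. The clone difference had 0 calls in every alternative run.

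Of the genes with values in the text, all kept their direction in the alternatives run except where libraries were left out: XAF1 ranged from -0.43 (without VP16_uninduced of index set 1) to 1.68, SERPINB2 from -0.42 (without VP16_tracer_Dam of set 1) to 2.84, and EHMT2 from -0.049 to 0.018 (without VP16_uninduced of set 2), with 0.0038 without VP16_tracer_Dam of set 2. Alternatives that keep all the libraries compare the same counts, so a kept direction there is no separate support. RLE factors left 34 list medians within the spread of the index sets. With no filter 24 stayed and 10 moved: replication-dependent histones to -0.12, prostaglandin genes to 0.52, immediate-early genes to 0.10, NRF2 targets to -0.028, H3K9 methylation to -0.018, protocadherins to 0.66, epithelial markers to 0.16, fibroblast markers to 0.039, neural markers to 0.43 and olfactory receptors with keratin-associated proteins to 0.11. The prior count cannot change whether a tracer library lies between the others. With genes counted within 1 Mb, the share called higher in the sparsest bin was 4.22%. The cause of these differences was not tested, beyond the fewer samples or other genes that each fit holds. With 2 libraries per group, depth limits the genes at a few reads, where the median SE over all genes of 0.0886 does not hold.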
